A study of Homo sapiens with 2 samples.

Results

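Amino-acid and neurotransmitter transporters were examined in H1299 cells that had received an EGR1 plasmid, against cells that had received the empty pcDNA3.1 plasmid. The members were the genes of 7 solute carrier families, SLC1A, SLC3A, SLC6A, SLC7A, SLC36A, SLC38A and SLC43A. They were picked out by gene symbol, among probe sets with a single symbol, and with earlier results of these data known. The brightest probe set (highest mean over both arrays) stood for each gene. This gave 59 genes of 18132 on the array, read by 169 of 49395 probe sets. H1299 is an established line from a human non-small cell lung cancer. The cells were transiently transfected with a lipid reagent and, per the series description, collected after 48 hours, and total RNA was read on 1 Affymetrix array per group. The EGR1 group carried the recombinant vector and the control group the same vector backbone without insert, so both went through transfection. The study asked which genes EGR1, an immediate-early zinc-finger transcription factor, regulates in these cells.

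With 1 array per group there was no replicate error and no test. The values hold for these 2 arrays alone and carry no estimate of how other cultures would vary. The share of cells that took up plasmid is not given in the sources used here, and a difference in bulk RNA cannot tell more RNA per cell from more cells that express a gene. Levels are log2 probe-set values, and each difference is the EGR1 array's level less the empty-vector array's level. Dim probe sets were those with a mean under 5.22, the 40th percentile over the whole array, called the floor here. The mean level of 38 of the 59 transporters was past it, as was that of 12652 genes of the array. Differences could be repeated only across the probe sets of a gene. Their pooled SD within a gene was 0.15 on the log2 scale, from 7113 genes that had 2 or more such probe sets past the floor, and it holds nothing of the spread between cultures.

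These families carry amino acids, amino-acid derivatives and monoamines across the plasma membrane or the lysosomal membrane. SLC1A, SLC6A and SLC38A proteins use the sodium gradient, SLC36A proteins mostly couple to protons, and the light chains among the SLC7A proteins exchange amino acids after pairing with a heavy chain of the SLC3A family. In tumour cells the heavy chain SLC3A2 (CD98hc), its leucine-carrying light chain SLC7A5 (LAT1), its cystine-carrying light chain SLC7A11 (xCT) and the glutamine exchanger SLC1A5 (ASCT2) are the best known members. The amino-acid response, run by the transcription factor ATF4, raises several of them when amino acids are short.

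The transporter that differed most was SLC6A8, the creatine transporter. The heavy chain SLC3A2 and its light chain SLC7A5 were both slightly higher in the EGR1 array, and SLC36A4 and, by its brightest probe set, SLC36A1 were lower. Most other members were within 1.2-fold of each other in the 2 arrays. EGR1 is a DNA-binding factor with a GC-rich motif, so the bases upstream of a start site are shown for some members. These are SLC6A8, SLC7A5 and SLC3A2, 3 of the 6 genes at least 1.2-fold higher, and 1 start site of SLC36A1. The SLC36A1 window was picked because it held a motif, and the direction of that gene rests on the choice of probe set. The windows of SLC36A4, which held no motif, are not shown. The shown bases come from RefSeq promoter sequences (build GRCh38.p14), in which 45 of the 59 members had at least 1 window. They are the 250 bases before a start site on the gene's strand, 5′ to 3′. The searched motifs were GCGTGGGCG and GCGGGGGCG, 2 forms of the EGR1 motif, and TGATGCAA, a core of the amino-acid response element, each on both strands. Capitals mark a match.
SLC6A8, chrX:153687676-153687925, plus strand: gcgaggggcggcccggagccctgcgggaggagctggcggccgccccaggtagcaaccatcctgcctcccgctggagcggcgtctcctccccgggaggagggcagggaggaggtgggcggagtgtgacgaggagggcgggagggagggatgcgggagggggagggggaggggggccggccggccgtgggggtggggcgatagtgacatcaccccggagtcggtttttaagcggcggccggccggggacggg
SLC7A5, chr16:87869508-87869757, minus strand: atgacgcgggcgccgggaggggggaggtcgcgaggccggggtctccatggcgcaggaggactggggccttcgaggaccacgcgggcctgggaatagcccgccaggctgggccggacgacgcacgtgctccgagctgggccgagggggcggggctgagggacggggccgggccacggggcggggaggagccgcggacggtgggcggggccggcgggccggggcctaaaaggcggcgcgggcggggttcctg
SLC3A2, chr11:62881449-62881698, plus strand, the first listed of its 3 windows: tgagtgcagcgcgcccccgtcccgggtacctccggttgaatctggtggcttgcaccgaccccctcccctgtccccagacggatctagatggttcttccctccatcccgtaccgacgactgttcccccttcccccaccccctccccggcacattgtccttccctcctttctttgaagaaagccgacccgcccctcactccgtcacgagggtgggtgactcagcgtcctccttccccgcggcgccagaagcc
SLC36A1, chr5:151447353-151447602, plus strand, the downstream of its 2 windows: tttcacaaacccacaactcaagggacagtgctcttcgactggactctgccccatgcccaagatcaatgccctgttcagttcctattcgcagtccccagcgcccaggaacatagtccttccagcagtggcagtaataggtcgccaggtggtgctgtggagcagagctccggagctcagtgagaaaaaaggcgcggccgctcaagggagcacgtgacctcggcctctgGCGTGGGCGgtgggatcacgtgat

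The windows of SLC6A8, SLC7A5 and SLC6A17, all 3 of SLC3A2, both of SLC38A7 and both of SLC36A4 held none of the 3 motifs. This says only that these letters are not in those bases. SLC38A3, also at least 1.2-fold higher, had no window. The downstream SLC36A1 window held GCGTGGGCG from base -24 to base -16 before the start site, and its other window held no match. Among the 44 windows of members past the floor, 2 (4.55%) held GCGTGGGCG, those of SLC36A1 and SLC6A11, against 253 of all 35116 windows (0.72%). GCGGGGGCG was in 3 of the 44 (6.82%), those of SLC1A4, SLC38A12 and SLC6A7, against 4.72% of all windows. TGATGCAA was in 1 of the 44 (2.27%), at SLC1A5, against 0.772% of all windows. The 5 genes with an EGR1 motif lay on both sides of 0, with differences of -0.37 for SLC36A1, -0.01 for SLC38A12, 0 for SLC6A7, 0.05 for SLC6A11 and 0.17 for SLC1A4.

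The transfected gene was read by 6 probe sets, which disagreed. One EGR1 probe set stood at 11.43 in the EGR1 array and 7.70 in the empty-vector array, and another at 9.92 in the EGR1 array and 7.17 in the empty-vector array, while the other 4 differed by -0.39 to -0.20. The brightest of the 6 was among these 4, at 10.12 in the EGR1 array and 10.51 in the empty-vector array (1.31-fold lower). By the rule used for the transporters, that probe set would stand for EGR1. The positions of the 6 EGR1 probe sets are not known here, and neither is which of them can read the plasmid. Of the mesenchymal markers 4 of 5 were past the floor, with a median difference of 0.06, and VIM stood at 13.66 in the EGR1 array and 13.73 in the empty-vector array. Of the simple-epithelium markers 4 of 6 were past the floor, with a median of 1.003. KRT18 stood at 12.47 in the EGR1 array and 10.70 in the empty-vector array, KRT8 at 9.97 in the EGR1 array and 7.97 in the empty-vector array, KRT19 differed by 0.24 and KRT7 by -0.55, and EPCAM and CDH1 were under the floor.

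Of all genes past the floor 44.6% were above 0 and 7.07% at least 1.2-fold higher. Among markers of other cell types and the lung lineage past the floor, the median difference was 0.21 for 5 of 6 neuronal markers. It was 0.20 for 3 of 4 astrocyte markers (3 above 0) and 0.18 for 4 of 9 leukocyte markers (3 above 0). For 4 of 8 lung-lineage markers it was 0.14 (3 above 0). The 5 neuronal markers were all above 0, and 2 (40%) were at least 1.2-fold higher, SNAP25 at 1.16 and TUBB3 at 0.57. So were 1 of 3 astrocyte markers (33.3%, GFAP at 0.29) and 1 of 4 leukocyte markers (25%, CD3E at 0.30). In the lung lineage 1 of 4 was (25%, NKX2-1 at 0.30). The median was -0.01 for 3 of 5 endothelial markers (1 above 0) and -0.07 for the 1 of 7 fibroblast markers past the floor. No endothelial or fibroblast marker past the floor was 1.2-fold higher. The defining leukocyte gene PTPRC was under the floor in both arrays. The part of these markers in the transporter differences was not tested.

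None of the 38 transporters past the floor was 2-fold higher or lower, against 0.348% and 0.0079% of the genes of the array. At 1.5-fold, 1 was higher (0.941% of all genes past the floor were) and none was lower (0.229%). At 1.2-fold, 6 of 38 (15.8%) were higher and 3 (7.89%) lower, against 7.07% and 5.85% of all genes past the floor. Such a difference is about as large as 0.26 on the log2 scale. The 38 differences had a median of 0.01 and quartiles of -0.10 and 0.16. Over all 12652 genes past the floor the median was -0.02 and the quartiles -0.12 and 0.10. The other SLC genes, 211 past the floor, had a median of 0, with 14 (6.64%) at least 1.2-fold higher and 19 (9%) at least 1.2-fold lower. With no replicate, a share of a few genes above the background is a count and not a shown difference.

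**Figure D1:**
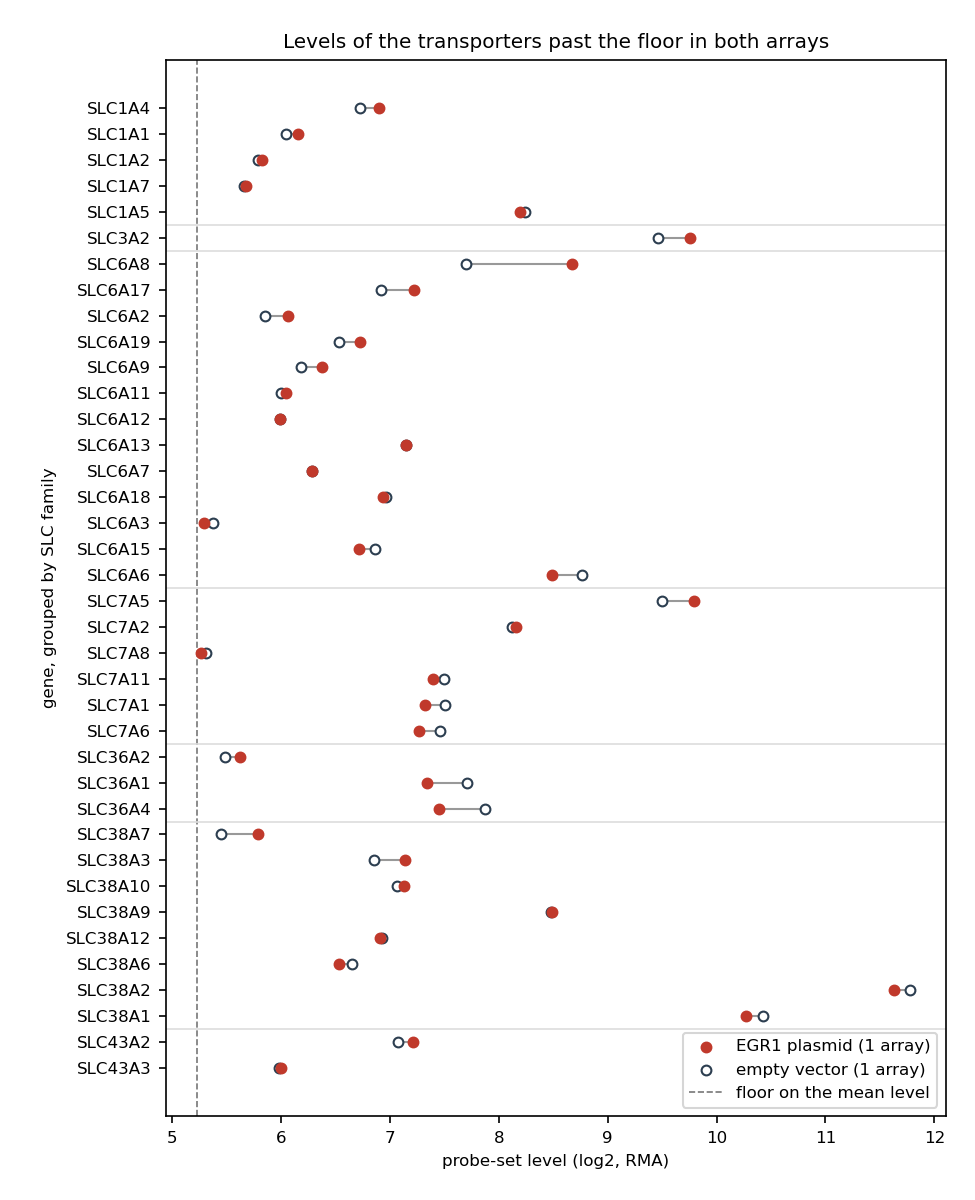
Probe-set level (log2, RMA) of each of the 38 transporters past the floor in the EGR1 array (filled) and the empty-vector array (open), grouped by family, with the floor of 5.22 dashed. The pair of points for SLC6A8 (8.67 in the EGR1 array, 7.70 in the empty-vector array) lies far apart, and for most other genes the points nearly touch.

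The SLC6A family, which holds the transporters for monoamines, GABA, glycine, creatine and taurine, had 18 members, 13 of them past the floor. Of these 6 were above 0, 4 below and 3 at exactly 0. SLC6A8, which imports creatine for the phosphocreatine energy buffer, stood at 8.67 in the EGR1 array and 7.70 in the empty-vector array. It was 1.96-fold higher, the 48th largest difference toward higher levels among the 12652 genes. Its other probe sets were higher too, at 7.64 and 7.44 in the EGR1 array against 7.24 and 6.74 in the empty-vector array, so that the mean difference was 0.69 ± 0.29 (SD over 3 probe sets). Both of those have the suffix _x_at, given to probe sets that may cross-hybridise, and SLC6A8 has near-identical pseudogene copies.

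SLC6A17, a vesicular carrier of neutral amino acids in neurons, stood at 7.22 in the EGR1 array and 6.92 in the empty-vector array (1.23-fold higher). Its other probe set went the other way, at 6.17 in the EGR1 array and 6.29 in the empty-vector array. SLC6A6, the taurine transporter, stood at 8.49 in the EGR1 array and 8.76 in the empty-vector array (1.21-fold lower). Its only other probe set past the floor differed by -0.12, and the 3 under the floor ranged from -0.17 to 0.23. The SLC6A17 and SLC6A6 differences are therefore less well backed by their other probe sets than that of SLC6A8.

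The monoamine transporters differed little. The norepinephrine transporter SLC6A2 stood at 6.07 in the EGR1 array and 5.85 in the empty-vector array, and the dopamine transporter SLC6A3, close to the floor, at 5.29 in the EGR1 array and 5.38 in the empty-vector array. The serotonin transporter SLC6A4 was under the floor in both. The glycine transporter SLC6A9 stood at 6.37 in the EGR1 array and 6.18 in the empty-vector array, and its 7 probe sets ranged from -0.32 to 0.34. Among carriers of GABA, betaine and proline, SLC6A11 differed by 0.05 by its brightest probe set. The brightest probe sets of SLC6A12, SLC6A13 and SLC6A7 had the same value in both arrays to the last digit (5.99, 7.15 and 6.29). Probe sets under the floor differed by 0.58 in SLC6A11, 0.53 in SLC6A7, 0 and 0.30 in SLC6A12 and -0.17 to 0.14 in SLC6A13. Among the carriers of neutral amino acids, SLC6A19, the main such transporter of gut and kidney, stood at 6.72 in the EGR1 array and 6.53 in the empty-vector array, with its 2 dimmer probe sets below 0. The kidney form SLC6A18 differed by -0.03 and the branched-chain and proline carrier SLC6A15 by -0.15.

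The heteromeric transporters differed by light chain. SLC3A2, the heavy chain that carries its light chains to the cell surface, stood at 9.76 in the EGR1 array and 9.46 in the empty-vector array (1.23-fold higher). All 7 SLC3A2 probe sets were past the floor and higher in the EGR1 array, by 0.25 to 0.37, with a mean of 0.29 ± 0.04 (SD over 7 probe sets). SLC7A5, its light chain for leucine and other large neutral amino acids, stood at 9.79 in the EGR1 array and 9.50 in the empty-vector array (1.22-fold higher). The other SLC7A5 probe set stood at 7.18 in the EGR1 array and 6.93 in the empty-vector array. SLC3A2 and SLC7A5 thus differed by nearly the same amount, 0.29 each.

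The other light chains past the floor were not higher by their brightest probe set. SLC7A6, which exchanges cationic for neutral amino acids, stood at 7.26 in the EGR1 array and 7.46 in the empty-vector array, and its 3 probe sets were all below 0 (-0.22 to -0.16). SLC7A8, a second light chain for neutral amino acids, was near the floor at 5.27 in the EGR1 array and 5.31 in the empty-vector array. SLC7A11, which imports cystine in exchange for glutamate and so feeds glutathione synthesis, stood at 7.39 in the EGR1 array and 7.49 in the empty-vector array. Its probe sets disagreed: a second differed by 0.40 (6.99 in the EGR1 array and 6.59 in the empty-vector array) and the third by -0.19. The direction of SLC7A11 was therefore not settled by these arrays. SLC7A7, SLC7A9, SLC7A10 and SLC7A13 were under the floor, as was SLC3A1, the heavy chain of kidney and gut, at 4.13 in the EGR1 array and 3.74 in the empty-vector array.

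The cationic transporters of the SLC7A family, which bring in arginine and lysine without a heavy chain, did not follow SLC7A5. SLC7A1 stood at 7.32 in the EGR1 array and 7.51 in the empty-vector array (1.14-fold lower). All 4 SLC7A1 probe sets were below 0, from -0.47 to -0.13. SLC7A2 differed by 0.03 by its brightest probe set, at 8.16 in the EGR1 array and 8.12 in the empty-vector array, but by -0.38 and -0.21 by the next 2. In all, 6 of 13 SLC7A members were past the floor, 2 above and 4 below 0, with a median of -0.07.

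**Figure D2:**
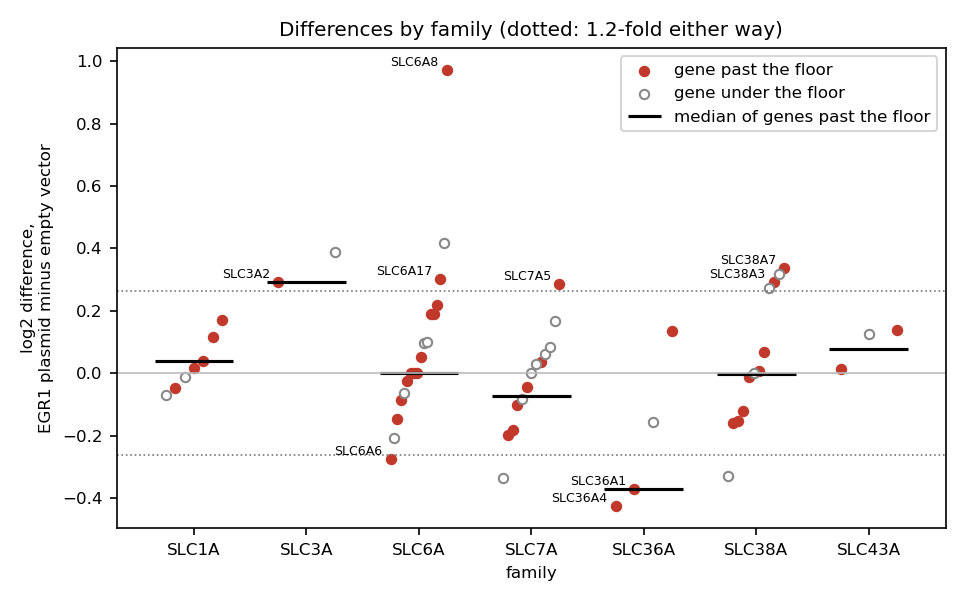
Log2 difference (EGR1 plasmid minus empty vector) of every member by family, for genes past the floor (filled) and under it (open), with the median of the genes past the floor as a bar and 1.2-fold either way dotted. SLC6A8 at 0.97 stands alone at the top, and SLC36A4 and SLC36A1 lie lowest at -0.43 and -0.37.

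The SLC36A family was the only one of the 7 with its median past 1.2-fold lower (-0.37), but that median was the SLC36A1 value itself, over 3 genes. SLC36A4, a high-affinity carrier of proline and tryptophan, stood at 7.45 in the EGR1 array and 7.87 in the empty-vector array (1.34-fold lower). Its other probe set showed the same direction at 7.24 in the EGR1 array and 7.76 in the empty-vector array. SLC36A1, which moves small amino acids with protons at lysosomes and at the plasma membrane, stood at 7.34 in the EGR1 array and 7.71 in the empty-vector array (1.29-fold lower). Its 6 probe sets ran from -0.37 to 0.40, and their mean was 0.02 ± 0.28 (SD over 6 probe sets). The probe set at 0.40 was under the floor. The 5 past the floor ran from -0.37 to 0.24, so the direction of SLC36A1 rests on the choice of probe set. SLC36A2 was slightly higher, at 5.62 in the EGR1 array and 5.49 in the empty-vector array, and SLC36A3 was under the floor.

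Of 12 SLC38A members, sodium-coupled carriers of glutamine and other neutral amino acids, 8 were past the floor, 4 above and 4 below 0. SLC38A7, a lysosomal exporter of glutamine and asparagine, stood at 5.78 in the EGR1 array and 5.45 in the empty-vector array (1.26-fold higher), barely above the floor. Its 3 other probe sets were under the floor and differed by 0.02 to 0.12. SLC38A3, which moves glutamine in liver, kidney and astrocytes, stood at 7.14 in the EGR1 array and 6.85 in the empty-vector array (1.22-fold higher), and its dimmer probe set differed by 0.20. Both SLC38A3 probe sets therefore lay on the same side of 0.

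SLC38A1 and SLC38A2, plasma-membrane carriers of glutamine, were lower by little. SLC38A1 stood at 10.27 in the EGR1 array and 10.43 in the empty-vector array (1.12-fold lower), and all 5 of its probe sets were below 0, down to -0.75 in a dim one. SLC38A2, which cells raise when amino acids are short, stood at 11.63 in the EGR1 array and 11.78 in the empty-vector array, with 3 of 3 probe sets below 0. SLC38A9, the lysosomal arginine sensor upstream of mTORC1, differed by 0.01, at 8.48 in each array. SLC38A6 differed by -0.12, SLC38A10 by 0.07 and SLC38A12 by -0.01.

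The SLC1A family had 5 of 7 members past the floor, 4 above and 1 below 0, and none at 1.2-fold by its brightest probe set. SLC1A4 (ASCT1), which exchanges alanine, serine and cysteine, stood at 6.90 in the EGR1 array and 6.73 in the empty-vector array (1.13-fold higher). All 6 SLC1A4 probe sets were higher in the EGR1 array and the brightest was the least changed of them. They ran from 0.17 to 0.91, with a mean of 0.46 ± 0.29 (SD over 6 probe sets). Only 4 of the 6 were past the floor, and these spanned the same range. The probe set at 0.91, past the floor, stood at 5.97 in the EGR1 array and 5.06 in the empty-vector array.

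The glutamine exchanger SLC1A5 stood at 8.19 in the EGR1 array and 8.24 in the empty-vector array, and its 3 probe sets lay between -0.05 and -0.02. SLC1A1, the glutamate transporter EAAT3, stood at 6.16 in the EGR1 array and 6.04 in the empty-vector array. The glutamate transporters SLC1A2 and SLC1A7 differed by 0.04 and 0.02, and SLC1A3 and SLC1A6 were under the floor. Of the 3 SLC43A members, SLC43A2, a facilitator for branched-chain amino acids and phenylalanine, stood at 7.21 in the EGR1 array and 7.07 in the empty-vector array. SLC43A3, which carries purine nucleobases, differed by 0.01 by its brightest probe set. Its other probe sets, under the floor, differed by -0.55 and -0.36. SLC43A1 was just under the floor.

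**Figure D3:**
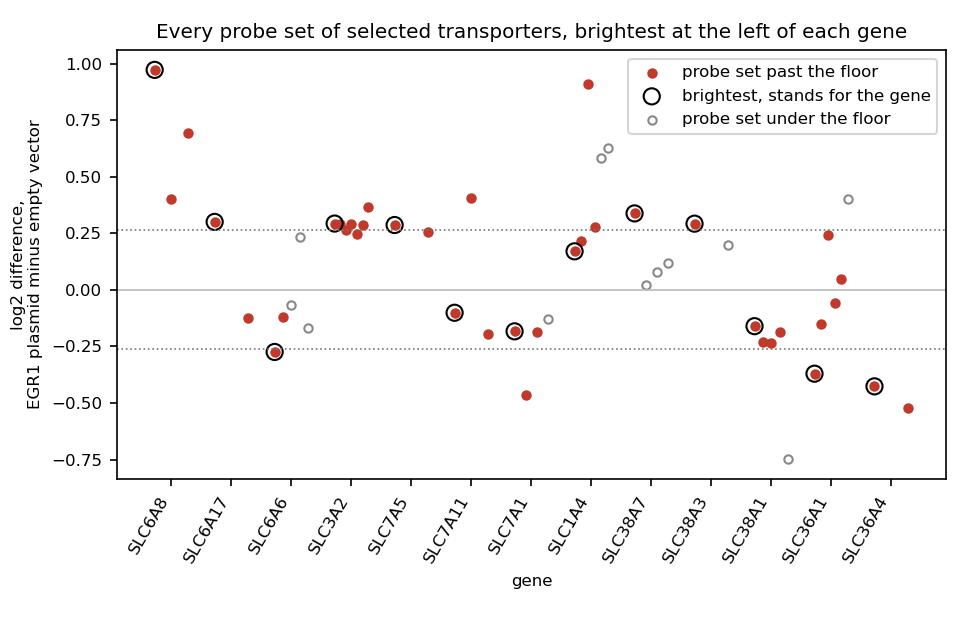
Log2 difference (EGR1 plasmid minus empty vector) of every probe set of selected transporters, from the brightest at the left of each gene (ringed) to the dimmest, with probe sets under the floor open and 1.2-fold either way dotted. The 7 probe sets of SLC3A2 lie close together between 0.25 and 0.37, those of SLC1A4 spread from 0.17 to 0.91, and those of SLC36A1 lie on both sides of 0.

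Among the 38 genes, 21 had at least 2 probe sets past the floor. In 13 of these such probe sets shared a direction, above 0 in 6 genes and below 0 in 7, and in the other 8 genes they did not. The difference was within the probe-set SD of 0.15 in 21 of the 38 genes and beyond it in 17. Neither the count of shared directions nor that of genes beyond 0.15 was made over all genes past the floor. No trait of these members is therefore read from them. Over all 12652 genes past the floor the quartiles were -0.12 and 0.10, against -0.10 and 0.16 for the 38. The 21 members under the floor had levels from 2.71 to 5.21 in the EGR1 array and from 2.79 to 5.09 in the empty-vector array, and their differences ran from -0.34 (SLC7A10) to 0.42 (SLC6A14). No direction was read from them.

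By their brightest probe sets, transporters known as ATF4 targets did not move together. Of 8, all past the floor, 4 were above and 4 below 0, and 2, SLC3A2 and SLC7A5, were at least 1.2-fold higher. Their median was 0.06. Of those below 0, SLC1A5 was within the probe-set SD, and the probe sets of SLC7A11 disagreed. Of those above 0, the probe sets of SLC6A9 disagreed too, from -0.32 to 0.19 past the floor. With all probe sets averaged, dim ones included, SLC1A4 differed by 0.46, SLC3A2 by 0.29, SLC7A5 by 0.27, SLC6A9 by 0.06 and SLC7A11 by 0.04. By the same measure SLC7A1 differed by -0.24, SLC38A2 by -0.10 and SLC1A5 by -0.03. The wider list of ATF4 and the amino-acid response had 24 of 25 genes past the floor, with 12 above and 12 below 0 and a median of 0.01. In it 5 (20.8%) were at least 1.2-fold higher and 1 (4.17%) lower, against 7.07% and 5.85% of all genes past the floor. The highest were DDIT3 (CHOP), at 10.23 in the EGR1 array and 9.15 in the empty-vector array, the stress factor ATF3, with a difference of 0.77, the ATF4 inhibitor TRIB3, with 0.48, and the mTORC1 inhibitor DDIT4, with 0.37.

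Lists of genes that use the imported amino acids are short, and with 7.07% of all genes at least 1.2-fold higher and 5.85% lower, few calls or none in each lie near the background. None of 19 aminoacyl-tRNA synthetase genes was 1.2-fold higher or lower (median -0.04), with WARS1, for tryptophan, the most different at 0.26. Likewise none of 10 serine and glycine synthesis genes (median -0.07, SHMT1 -0.19), none of 10 glutamine, glutamate and proline genes (median 0.005, OAT -0.18) and none of 7 branched-chain and tryptophan catabolism genes (median -0.07, IDO2 0.19) reached it. Of 11 cystine, cysteine and glutathione genes 1 was lower, CHAC2, which degrades glutathione, at 7.78 in the EGR1 array and 8.21 in the empty-vector array. The cystathionine enzyme gene CTH differed by -0.23.

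In the list of amino-acid sensing by mTORC1, 31 genes were past the floor, 3 (9.68%) at least 1.2-fold higher and 2 (6.45%) lower, shares near the 7.07% and 5.85% of all genes, with a median of 0.02. FLCN, the folliculin GTPase activator of the lysosomal Rag pathway, stood at 6.31 in the EGR1 array and 6.71 in the empty-vector array. DEPDC5, a subunit of the GATOR1 brake on mTORC1, stood at 5.44 in the EGR1 array and 5.07 in the empty-vector array, where it was under the floor. The arginine sensor CASTOR1 differed by 0.29, as did the S-adenosylmethionine sensor SAMTOR.

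Among the partners and regulators of transporters, 1 of 7 (14.3%) was at least 1.2-fold higher, against 7.07% of all genes. That gene was SGK1, a kinase that raises the surface amount of several carriers, at 10.83 in the EGR1 array and 10.45 in the empty-vector array. CLTRN, the kidney partner of SLC6A19, differed by 0.26. Other amino-acid and vesicular transmitter carriers had 16 genes past the floor, 2 (12.5%) higher and 1 (6.25%) lower at 1.2-fold, against 7.07% and 5.85% of all genes. These were the vesicular glutamate carrier SLC17A7 (0.30), the mitochondrial glutamate carrier SLC25A22 (0.27) and the lysosomal peptide and histidine carrier SLC15A4 (-0.28). Of 10 genes of transmitter synthesis and breakdown past the floor, 2 (20%) were at least 1.2-fold higher, against 7.07% of all genes, with a median of 0.14 for the list. They were DDC, which makes dopamine and serotonin from their precursors, at 6.29 in the EGR1 array and 5.87 in the empty-vector array, and the tyrosine hydroxylase gene TH, at 7.21 in the EGR1 array and 6.83 in the empty-vector array.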

How the data were processed

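The authors deposited log2 probe-set levels of 2 samples. Per the submitters' processing notes they were made with RMA, a method of background correction, normalization between arrays and probe summary, and which software and how many arrays it ran on is not given in the sources used here. Arrays have no read depth, so their number limits the precision. Gene names came from the platform annotation, updated by Entrez ID in a RefSeq gene table (GRCh38.p14), and 44988 probe sets had 1 symbol. Control probe sets were left out, as were 4 probe sets annotated to several genes or to a gene whose symbol only resembles a member's.

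With 1 array per group nothing was tested. Differences were counted at 2-fold, 1.5-fold and 1.2-fold (Python 3.11.15, pandas 2.3.3). The 1.5-fold count alone was run on simulated data, with planted shifts well past that fold. This checks only that the counting works, and the 1.2-fold count was not simulated. Members past the floor were all named, each with its own sentence where it was 1.2-fold different or among the 3 most different of its family. In other lists up to 4 genes past the floor with the largest difference could be named. The markers named were chosen after their values were seen. Members and gene lists were chosen with earlier results of these data known. Alternatives were averaging all probe sets of a gene, leaving out those with the suffix _x_at or _s_at, a lowess correction (statsmodels 0.14.6, fraction 0.3), annotation symbols, no floor and a floor at the 60th percentile.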

Additional observations from a re-analysis of the deposited data

Results flagged for a closer look

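A probe set outside the member rule is annotated to SLC6A8 together with its pseudogenes SLC6A10P and SLC6A10PB. It stood at 7.35 in the EGR1 array and 6.45 in the empty-vector array, a log2 difference of 0.90 (1.87-fold higher), and is given because it was not used in any count above and lay above the level of the control array. Which of these transcripts it read was not tested.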

How the results depend on the processing

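The 12 counts and medians kept within 1.5 times of the count or within 0.15 of the median under annotation symbols, the lowess correction and a floor at the 60th percentile. Without a floor, 10 members in place of 6 were at least 1.2-fold higher and 5 in place of 3 lower, over 59 genes. When all probe sets of a gene were averaged, the SLC36A median was 0.0185 in place of -0.37, the SLC43A median was -0.14 in place of 0.08, and SLC36A1 turned to 0.0185. With _x_at and _s_at probe sets left out, the SLC36A median, again SLC36A1, was -0.15. The count at 1.5-fold was 1 higher and 0 lower under all 6 alternatives, the 1 gene at 1.5-fold being SLC6A8 with the mean of all probe sets too (0.69). Of the 38 genes past the floor, the mean of all probe sets moved 12 by over 0.15 beside SLC36A1, among them SLC1A4 (0.46), SLC38A7 (0.14) and SLC6A17 (0.09), and leaving out _x_at and _s_at probe sets moved 5, among them SLC7A11 (0.40). Why these values moved was not tested. No paired analysis was possible because each group had 1 array, and for the same reason no replicate could be left out.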
